A study of Rattus norvegicus with 9 samples.

Results

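The Hox genes of clusters A to D were followed across cultured rat fibroblasts from the epineurium (Fb-Epn), the parenchyma of the nerve (Fb-Par) and the skin (Fb-Skn). Members were all genes whose symbol is Hox, a letter from a to d and a number, which gave 44 listed genes with 39 symbols among 32883 genes. Fb-Epn and Fb-Par came from sciatic nerves of 2 wild-type male Lewis rats, and Fb-Skn came from abdominal skin of 1 other rat of this kind, all at 10 weeks of age and without any further treatment. Each type had 3 libraries, made from cells after 1 passage. The rats were fewer than the samples of each type, so SDs and p-values measure only the spread between these samples, which may be technical. The nerve types and Fb-Skn differ at once in the tissue, the rat and the site on the body, which cannot be told apart.

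Hox genes encode homeodomain transcription factors that pattern the body from head to tail. In each cluster the genes lie in the order in which they are used along the body axis, with low paralog numbers toward the head and high numbers toward the tail, and adult fibroblasts are known to keep a Hox pattern that reflects where in the body they arose. Their proteins bind DNA together with cofactors of the PBX, MEIS and PKNOX families, and Polycomb and Trithorax proteins maintain their off and on states.

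Total counts per library ranged from 10084584 to 12310506. Levels are given in TPM, which are scaled by gene length, and a gene was called detected in a type when all 3 libraries reached a TPM of 1. Differences were tested on counts with edgeR's quasi-likelihood test over 13273 genes and called at a Benjamini-Hochberg adjusted p under 0.01. Those that also passed a log2 fold change of 2 in size are named DE genes. For a single value, the smallest p of an exact permutation test (two-sided) with 3 libraries against 3 is 0.10. The labelled cell type was checked against its markers, and all 9 listed fibroblast markers in the table were detected in each type. Markers of other cells also moved between types. Summed Schwann cell markers (6 genes) lay at 156 to 170 TPM in Fb-Epn, 198 to 207 in Fb-Par and 9.82 to 12.6 in Fb-Skn, where Sox10 and Erbb3 were at 0. The 6 macrophage and leukocyte markers summed to 228 to 256, 55.2 to 60.1 and 18.6 to 20.5 TPM. Perineurial markers (4 genes) summed to 156 to 163 TPM in Fb-Epn, 41.3 to 47.2 in Fb-Par and 77.9 to 87.9 in Fb-Skn. Most of these sums came from Slc2a1, with means of 145, 34.9 and 69.0 TPM. Cldn1 was detected in no type, and Krt23 was highest in Fb-Skn (mean 2.74 TPM, against 0.185 in Fb-Epn and 0.158 in Fb-Par). Endothelial markers (4 genes) summed to 12.2 to 13.4, 11.2 to 12.5 and 5.86 to 6.31 TPM, but did not move together. Tek made up most of the nerve sums, with means of 8.37 TPM (epineurial libraries) and 10.2 (parenchymal libraries), against 1.20 for skin. Flt1 was instead highest in skin, with a mean of 4.86 TPM against 2.42 (epineurial) and 1.71 (parenchymal). Cdh5 was at 0 in every skin library, but its parenchymal mean was also low, at 0.0968 TPM against 1.78 (epineurial). Keratinocyte, adipocyte and skeletal muscle markers each summed to at most 4.74 TPM in any library. The part of these cells in the Hox values was not tested. In such bulk samples, fewer cells of a type and less RNA per cell cannot be told apart.

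Hox RNA was present in all types and came mostly from HoxC genes, but the types differed in HoxB detection and in the HoxC paralogs. Of the 44 listed genes, 17 were detected in Fb-Skn, 12 in Fb-Par and 10 in Fb-Epn. Of these, 7 were detected in every type, and 24 listed genes were detected in no type. These 24 include all HoxA listings, whose counts do not separate low RNA from lost reads, as described for that cluster. Of the 10 HoxB genes, 8 were detected in Fb-Skn and 0 in either nerve type. HoxC genes were detected in all types, with all 9 in Fb-Par, 8 in Fb-Epn and 6 in Fb-Skn, and 2 of 9 HoxD genes were detected in Fb-Epn and 3 in each other type.

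**Figure D1:**
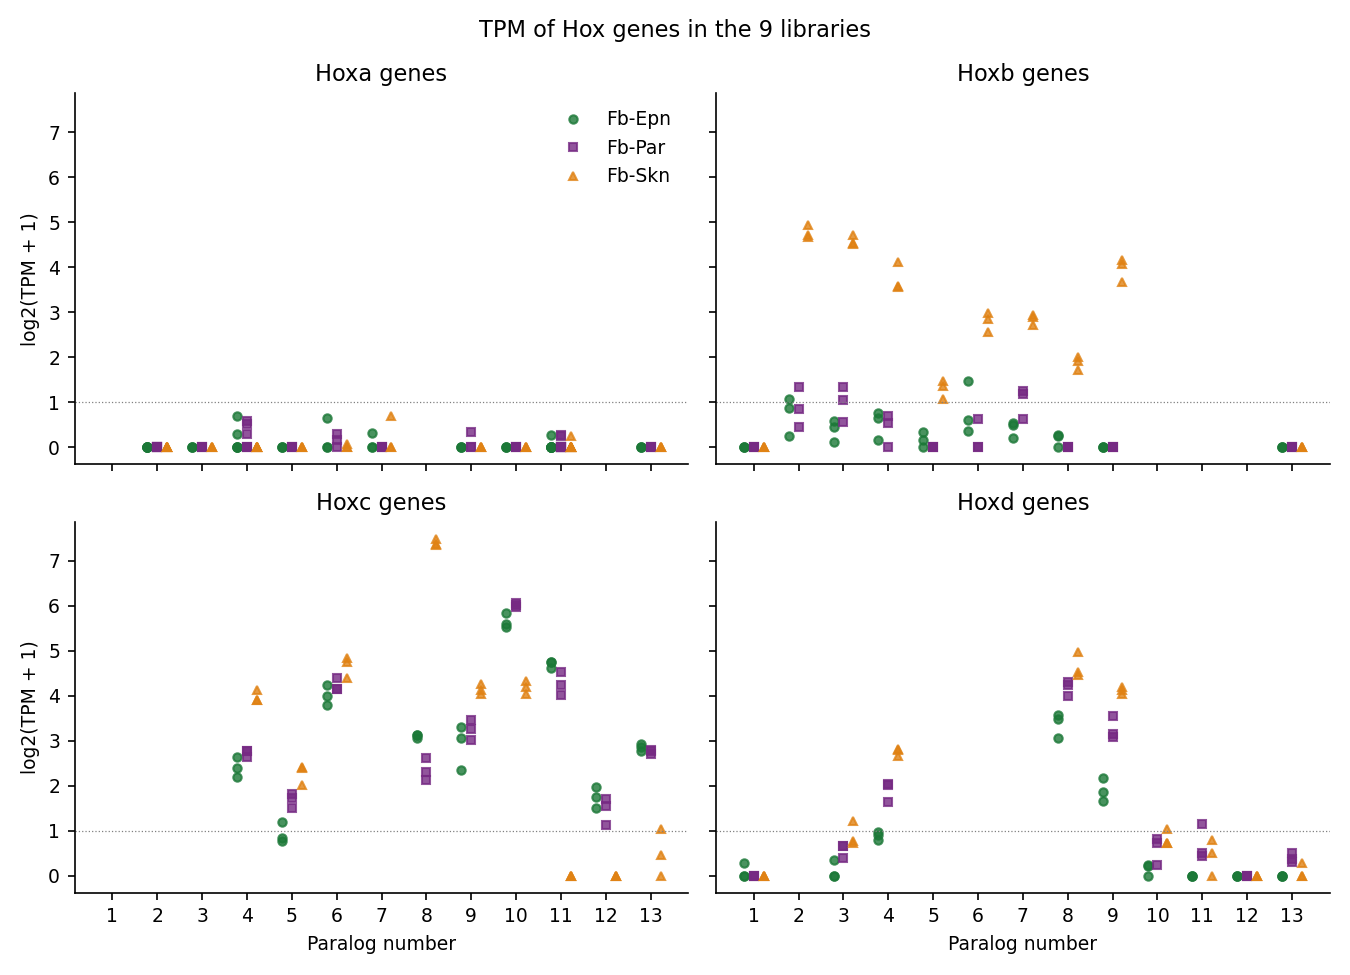
TPM of Hox genes on a log2(TPM + 1) scale (y axis) by paralog number (x axis), with 1 panel per cluster and 1 point per library of the 3 types. The dotted line marks a TPM of 1. Hoxb points of Fb-Skn stand above those of both nerve types from paralog 2 to 9, and among Hoxc genes the order of the types turns between paralogs 9 and 10.

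Summed over all members, Hox TPM was 389 ± 17.3 in Fb-Skn, 164 ± 6.32 in Fb-Par and 135 ± 8.40 in Fb-Epn (SD, n = 3 each). The ranges of the types did not overlap, at 372 to 406, 158 to 171 and 126 to 143. HoxC genes made up 63.3% ± 0.913 of this sum in Fb-Skn, 78.6% ± 2.19 in Fb-Par and 87.4% ± 0.459 in Fb-Epn. HoxB genes gave 24.0% ± 1.11 of it in Fb-Skn, against 2.18% ± 0.366 in Fb-Epn and 2.15% ± 0.594 in Fb-Par. HoxD genes had their highest share in Fb-Par, at 18.8% ± 1.65, against 9.88% ± 0.557 in Fb-Epn and 12.6% ± 1.43 in Fb-Skn.

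**Figure D2:**
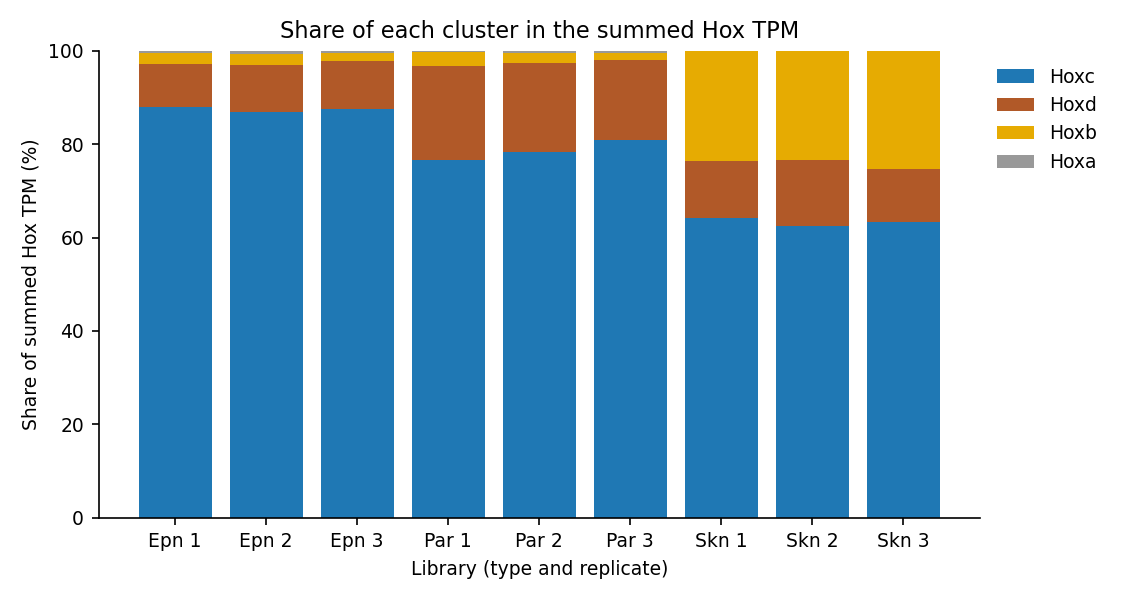
Share of the summed Hox TPM (y axis, percent) that each cluster gave in each library (x axis, type and replicate). Hoxc genes gave the most in every library, and Hoxb genes gave 23.3% to 25.3% in Fb-Skn against 1.65% to 2.81% in the nerve types.

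Of the 44 listed genes, 18 passed the filter on low counts and were tested: 7 of HoxB, 8 of HoxC and 3 of HoxD. Between Fb-Epn and Fb-Skn, 3 were higher and 15 lower in Fb-Epn, and 13 were DE genes. Over all tested genes, 23.0% were higher, 20.9% were lower and 8.44% were DE genes. Between Fb-Par and Fb-Skn the numbers were again 3 higher and 15 lower in Fb-Par, with 10 DE genes, beside 23.2%, 22.4% and 8.54% of all tested genes. Between Fb-Epn and Fb-Par, 1 was higher and 5 were lower in Fb-Epn, with no DE gene, beside 20.2%, 18.6% and 6.48%. The split of all genes depends on the scaling, with 3052 higher and 2778 lower in Fb-Epn against Fb-Skn as tested but 3715 and 2113 with library size only, and 3077 and 2975 in Fb-Par but 3737 and 2297. The Hox counts were then 3 higher and 15 lower in Fb-Epn, and 3 higher and 12 lower in Fb-Par. Genes that passed the filter only through the type in which they were high had to differ, so these counts describe the tested members and not all 44. The 9 members with at least 10 counts in every library had 1 higher and 8 lower in each nerve type against Fb-Skn. The median log2 fold change of these 9 was -1.90 (Fb-Epn against Fb-Skn), -1.06 (Fb-Par against Fb-Skn) and -0.36 (Fb-Epn against Fb-Par), while that of all genes tested under the default filter was -0.0028, -0.012 and -0.00018. Both comparisons with skin share the Fb-Skn libraries and are not independent of each other.

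**Figure D3:**
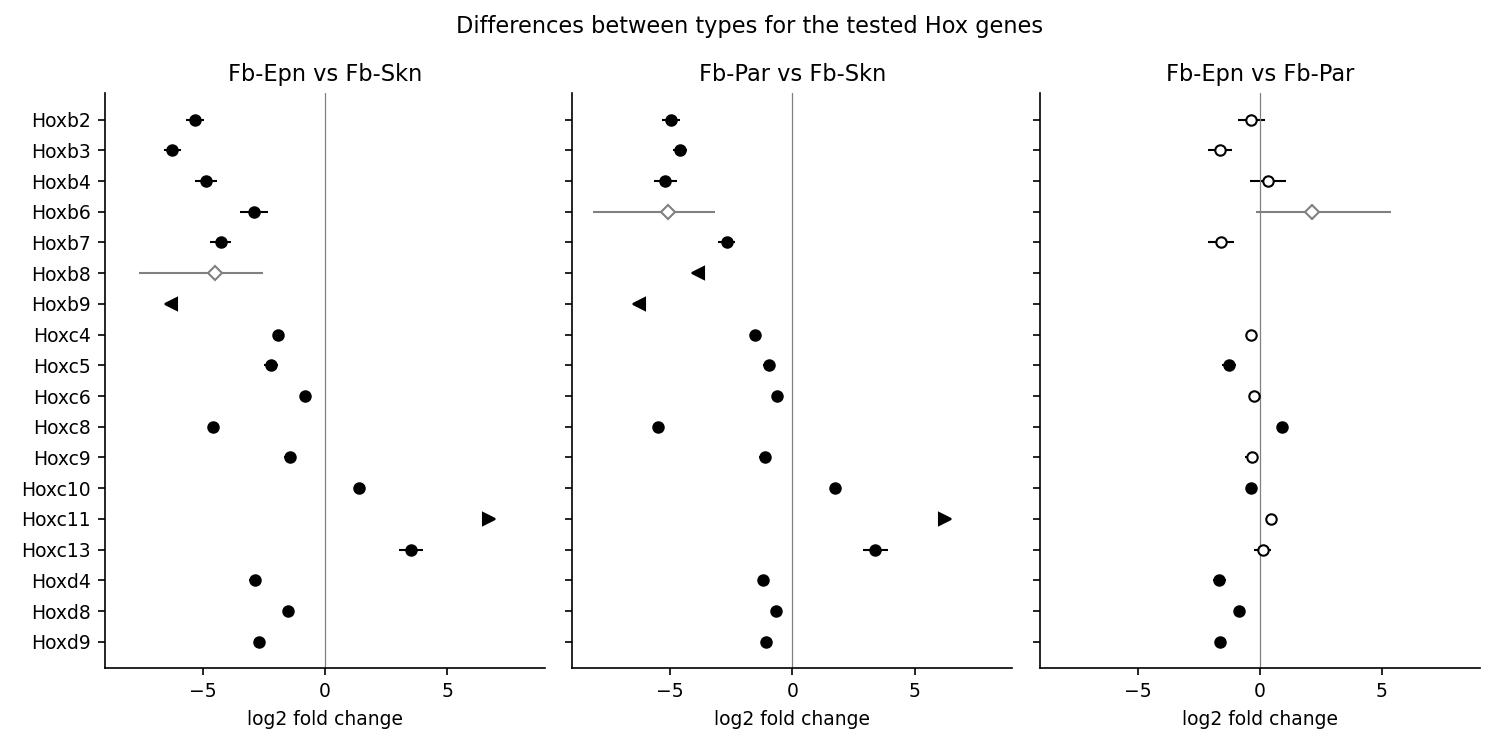
Log2 fold change (x axis) of the 18 tested Hox genes (y axis) in the 3 comparisons, positive where the first-named type was higher. Circles are edgeR estimates with the standard error, filled when the adjusted p was under 0.01. Triangles are folds against a floor of 3 counts for genes with no count in the lower type, with the higher count taken as exact. Grey diamonds are count ratios with 95% counting intervals (exact Clopper-Pearson) for genes with 1 to 3 counts in the lower type. Hoxb8 and Hoxb9 were at or under 3 counts in both nerve types and are not drawn in the right panel. Hoxc10, Hoxc11 and Hoxc13 are the only genes right of 0 in the left and middle panels.

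The HoxC cluster spanned 118 kb of chromosome 7 (rn6, 144531814 to 144650129, plus strand), in the order Hoxc13 to Hoxc4. Along it the direction of the difference from skin turned once. Hoxc13, Hoxc11 and Hoxc10 were higher in the nerve types, and Hoxc9, Hoxc8, Hoxc6, Hoxc5 and Hoxc4 were higher in Fb-Skn. Hoxc13 and Hoxc11 passed the filter on low counts only through the nerve types, which fixed the direction of their calls against skin. The turn lies in the 13.3 kb between the listed end of Hoxc10 and the listed start of Hoxc9. Hoxc12 was not tested because of low counts, but had counts in the nerve types only.

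Hoxc10 (ENSRNOG00000016149), a gene of lumbar and hindlimb levels in the embryo, was the HoxC gene with the highest TPM in the nerve types. Its TPM was 45.1, 47.5 and 56.5 in the Fb-Epn libraries, 63.5, 62.1 and 66.3 in Fb-Par and 15.5, 17.3 and 19.0 in Fb-Skn. The types did not overlap, and all 3 comparisons passed the test. The log2 fold change was 1.39 (SE 0.095, adjusted p = 1.3e-08) for Fb-Epn and 1.74 (SE 0.094, adjusted p = 7.6e-10) for Fb-Par, each against Fb-Skn. Fb-Epn was lower than Fb-Par by a log2 fold change of -0.35 (SE 0.084, adjusted p = 0.0027), a call that was lost without Fb-Epn replicate 1 (adjusted p = 0.0168), Fb-Epn replicate 2 (adjusted p = 0.0154) or Fb-Par replicate 3 (adjusted p = 0.0139).

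Hoxc11, a gene of lumbosacral levels and the hindlimb, had counts in the nerve types only. It reached TPM of 23.7, 25.8 and 26.0 in Fb-Epn and of 22.1, 18.0 and 15.3 in Fb-Par, and no count in any Fb-Skn library. Against a floor of 3 counts summed over the 3 libraries of a type, it was at least 105-fold higher in Fb-Epn and at least 76.6-fold higher in Fb-Par. Here and below, this floor takes the counts of the higher type as exact and leaves out their counting error. Its neighbour Hoxc12 followed the same pattern at a lower level. Hoxc12 TPM was 2.36, 2.93 and 1.87 in Fb-Epn, 1.95, 2.25 and 1.19 in Fb-Par and 0 in Fb-Skn, which gives at least 9.20-fold and at least 6.81-fold on the same floor.

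Hoxc13, known for its role in hair and nail keratins, was 5.85, 6.25 and 6.58 TPM in Fb-Epn, 5.91, 5.55 and 5.89 in Fb-Par and 0.372, 1.06 and 0 in Fb-Skn. Like Hoxc11, it passed the filter on low counts only through the nerve types, so the direction of its calls against skin was fixed. Its values against Fb-Skn are therefore given as a description. Hoxc13 was lower in the skin fibroblasts than in both nerve types. The log2 fold changes against Fb-Skn were 3.51 (SE 0.50, adjusted p = 3.1e-05) in Fb-Epn and 3.40 (SE 0.50, adjusted p = 4.5e-05) in Fb-Par. The counts of Fb-Skn replicate 2 set these values, which were 4.68 and 4.57 without it. Between the nerve types it differed by a log2 fold change of 0.12 with 2 standard errors on either side reaching from -0.57 to 0.80, so a difference within this interval was not detectable. Hoxc11 likewise did not pass between the nerve types (log2 fold change 0.45, SE 0.18, adjusted p = 0.048).

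Hoxc8, a gene of thoracic levels, had the highest TPM of all Hox genes in any type and the largest difference from skin among HoxC genes higher in Fb-Skn. Its TPM was 162, 165 and 178 in Fb-Skn, 7.81, 7.82 and 7.35 in Fb-Epn and 3.41, 5.12 and 3.93 in Fb-Par. The log2 fold change against Fb-Skn was -4.60 (SE 0.083, adjusted p = 4.4e-15) in Fb-Epn and -5.50 (SE 0.092, adjusted p = 1.3e-15) in Fb-Par. Of the tested Hox genes, Hoxc8 was also the only call with Fb-Epn above Fb-Par, by 0.90 (SE 0.13, adjusted p = 4.0e-05). All these Hoxc8 calls held under every alternative that was run.

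Hoxc8 and Hoxc10 thus exchanged places within the cluster. The ratio of Hoxc10 to Hoxc8 TPM was 0.102 ± 0.0059 in Fb-Skn, 15.9 ± 3.36 in Fb-Par and 6.51 ± 1.02 in Fb-Epn. Paralogs 10 to 13 gave 70.4% ± 1.96 and 70.0% ± 2.03 of HoxC TPM in Fb-Epn and Fb-Par, and 7.19% ± 0.483 in Fb-Skn. Hoxc8 alone gave 68.4% ± 0.706 of it in Fb-Skn, 6.49% ± 0.580 in Fb-Epn and 3.25% ± 0.787 in Fb-Par. The TPM-weighted mean paralog number of HoxC was 9.45 ± 0.022, 9.27 ± 0.093 and 7.73 ± 0.024 in the epineurial, parenchymal and skin libraries. In HoxD it was 7.90 ± 0.133, 7.99 ± 0.049 and 7.84 ± 0.0096.

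**Figure D4:**
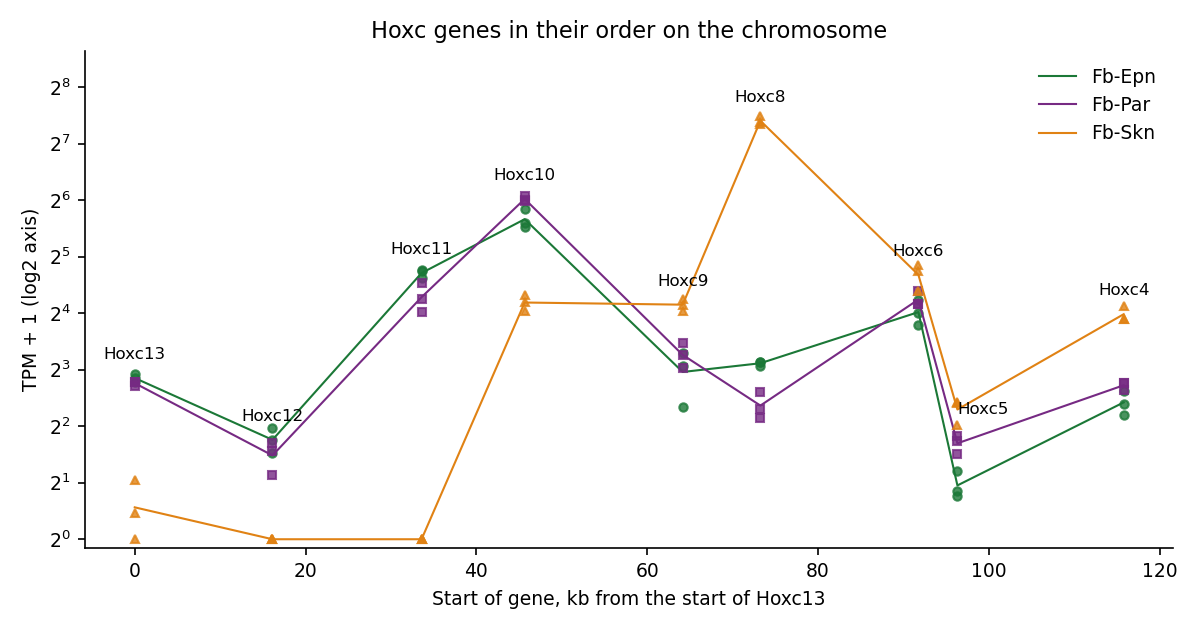
TPM + 1 on a log2 axis (y axis) of the 9 Hoxc genes at the distance of their start from that of Hoxc13 (x axis, kb). Points are libraries and lines join the means of each type. The nerve types lie above Fb-Skn from Hoxc13 to Hoxc10 and below it from Hoxc9 on, with Fb-Skn highest at Hoxc8.

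Hoxc4, Hoxc6 and Hoxc9 were detected in all types, with Fb-Skn highest in the mean. Hoxc9, another gene of thoracic levels, was 7.40, 8.86 and 4.09 TPM in Fb-Epn, 8.57, 7.14 and 10.1 in Fb-Par and 16.6, 18.1 and 15.5 in Fb-Skn. Hoxc6 was 12.9, 15.0 and 17.8 TPM in Fb-Epn, 16.8, 16.9 and 20.1 in Fb-Par and 26.0, 20.1 and 27.8 in Fb-Skn. The Fb-Skn libraries were above all nerve libraries for Hoxc9, while for Hoxc6 the lowest of them lay at the level of the highest of Fb-Par. Hoxc4 was 5.20, 4.26 and 3.62 TPM in Fb-Epn, 5.82, 5.20 and 5.81 in Fb-Par and 13.9, 16.6 and 13.9 in Fb-Skn. Its Fb-Skn values stood clear of both nerve types, with log2 fold changes of -1.90 (SE 0.16, adjusted p = 1.3e-07) and -1.55 (SE 0.16, adjusted p = 8.8e-07) for Fb-Epn and Fb-Par. For Hoxc9 they were -1.43 (adjusted p = 2.0e-04) and -1.11 (adjusted p = 0.0014), and for Hoxc6 -0.83 (adjusted p = 4.2e-04) and -0.61 (adjusted p = 0.0040). The last call is fragile. Hoxc6 between Fb-Par and Fb-Skn missed the threshold without Fb-Par replicate 1 (adjusted p = 0.0194), Fb-Par replicate 2 (0.0178), Fb-Skn replicate 1 (0.0219) or Fb-Skn replicate 3 (0.0240), and with TPM in place of counts (up to 0.0302). None of Hoxc4, Hoxc6 and Hoxc9 passed between Fb-Epn and Fb-Par, where log2 fold changes with 2 standard errors on either side ran from -0.70 to -0.016, from -0.55 to 0.097 and from -0.85 to 0.20.

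The HoxB cluster (chromosome 10, 84031955 to 84215687, plus strand) had 8 genes detected in Fb-Skn and none in the nerve types. Hoxb1, a hindbrain gene, and Hoxb13, the most posterior HoxB gene, had no count in any library. The 7 tested HoxB genes passed the filter on low counts through Fb-Skn, with at most 18 counts in any nerve library, so that the direction of their calls was fixed by the filter. Their values are therefore given as a description, and the filter of at least 10 counts in every library removed them all.

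Hoxb9 (ENSRNOG00000007573) had no count in any of the 6 nerve libraries and TPM of 11.8, 15.7 and 16.9 in Fb-Skn, which is at least 79.6-fold above Fb-Epn and at least 77.4-fold above Fb-Par on the floor of 3 counts. Hoxb2 and Hoxb3 had the highest HoxB levels. Hoxb2 was 25.3, 24.6 and 29.9 TPM in Fb-Skn, 0.186, 0.825 and 1.11 in Fb-Epn and 1.54, 0.790 and 0.375 in Fb-Par. Hoxb3 was 25.1, 21.8 and 22.1 TPM in Fb-Skn, 0.372, 0.494 and 0.0920 in Fb-Epn and 1.54, 1.08 and 0.469 in Fb-Par. For both genes every skin library was above every nerve library. Their log2 fold changes against Fb-Skn were -5.32 (SE 0.36, adjusted p = 1.4e-08) and -6.24 (SE 0.33, adjusted p = 6.8e-10) in Fb-Epn, and -4.97 (SE 0.35, adjusted p = 1.8e-08) and -4.60 (SE 0.28, adjusted p = 2.6e-09) in Fb-Par.

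Hoxb4, a gene also known from blood stem cells, was 10.8, 11.0 and 16.4 TPM in Fb-Skn and between 0 and 0.699 in the nerve libraries. Hoxb7 was 5.58, 6.39 and 6.65 TPM in Fb-Skn, 0.151, 0.402 and 0.449 in Fb-Epn and 0.554, 1.28 and 1.37 in Fb-Par. Hoxb6 was 4.89, 6.85 and 6.18 TPM in Fb-Skn, 1.77, 0.522 and 0.292 in Fb-Epn and 0.540, 0 and 0 in Fb-Par. For these 3 genes too, no nerve library reached the lowest skin library. The log2 fold change of Hoxb4 against Fb-Skn was -4.87 (adjusted p = 4.2e-07) in Fb-Epn and -5.20 (adjusted p = 3.0e-07) in Fb-Par, and that of Hoxb7 was -4.27 (adjusted p = 8.6e-07) and -2.68 (adjusted p = 1.5e-05). For Hoxb6 it was -2.90 in Fb-Epn (SE 0.58, adjusted p = 6.4e-04), while Fb-Par had 2 counts against 60 in Fb-Skn, a ratio of 33.8 (95% counting interval 8.96 to 285). Both of these counts were in Fb-Par replicate 1, and the fitted log2 fold change of Hoxb6 went from -4.84 to -7.44 without it, a value set by the prior count since no count is left. Without Fb-Epn replicate 1 the Hoxb6 value for Fb-Epn was -3.87, and without Fb-Par replicate 1 the values for Fb-Par were -5.83 for Hoxb4 and -5.61 for Hoxb2.

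Hoxb8 was 2.26, 3.02 and 2.78 TPM in Fb-Skn, with 2 counts in all of Fb-Epn and 0 in Fb-Par. The ratio of Fb-Skn to Fb-Epn was 22.6 (5.85 to 193) and that to Fb-Par was at least 14.6-fold. Hoxb5 was 1.56, 1.10 and 1.77 TPM in Fb-Skn and was not tested, with a ratio of 13.1 (4.13 to 66.9) to Fb-Epn and at least 12.8-fold to Fb-Par. These intervals cover counting error only. The floors take the Fb-Skn counts as exact, so the folds given as at least are not confidence limits.

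Between Fb-Epn and Fb-Par no HoxB gene passed the test. The smallest adjusted p was that of Hoxb3 (log2 fold change -1.63, SE 0.49, adjusted p = 0.012), followed by Hoxb7 (-1.58, SE 0.54, adjusted p = 0.024), and 2 HoxB genes had an unadjusted p under 0.05. Hoxb3 was called by DESeq2 (adjusted p = 0.0044), with a filter of at least 1 count over all libraries (adjusted p = 0.00153) and without Fb-Par replicate 3 (adjusted p = 0.00198), and Hoxb7 was called without Fb-Par replicate 1 (adjusted p = 0.00891). Counts of HoxB genes in the nerve libraries reached at most 18, so differences of this size are near the limit of these depths.

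The HoxD cluster (chromosome 3, 61590376 to 61687758, plus strand) showed a graded order, with Fb-Skn above Fb-Par and Fb-Par above Fb-Epn in the mean TPM of all 3 tested genes. Hoxd4, Hoxd8 and Hoxd9 passed the test in each of the 3 comparisons, as did Hoxc5 with the same order. The means of Hoxc4, Hoxc6, Hoxc9, Hoxb2, Hoxb3 and Hoxb7 had this order too, but these genes did not pass between the nerve types. The promoters of the 3 HoxD genes are shown because these genes moved together, and of the HoxB and HoxC genes Hoxb1 and Hoxc4 had an entry in the promoter table. RefSeq (GRCr8) places the 250 bases before their starts at chr3:80021636-80021885 for Hoxd4, chr3:80014973-80015222 for Hoxd8 and chr3:80007756-80008005 for Hoxd9, all on the plus strand. They are printed 5′ to 3′, with capitals for matches on either strand to 3 motifs: TGATNNAT (a site for PBX and HOX proteins together), TTTATNA (a Cdx site) and AGGTCA (the core site of retinoic acid receptors).

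Hoxd4: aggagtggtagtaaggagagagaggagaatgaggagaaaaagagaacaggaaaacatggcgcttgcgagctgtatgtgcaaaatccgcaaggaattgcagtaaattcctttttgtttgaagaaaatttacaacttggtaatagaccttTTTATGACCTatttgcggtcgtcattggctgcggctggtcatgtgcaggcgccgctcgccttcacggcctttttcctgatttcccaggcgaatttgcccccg
Hoxd8: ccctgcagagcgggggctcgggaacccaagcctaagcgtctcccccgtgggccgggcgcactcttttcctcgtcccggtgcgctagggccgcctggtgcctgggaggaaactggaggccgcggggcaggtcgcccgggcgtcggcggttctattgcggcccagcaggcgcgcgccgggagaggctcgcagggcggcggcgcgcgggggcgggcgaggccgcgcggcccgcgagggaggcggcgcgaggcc
Hoxd9: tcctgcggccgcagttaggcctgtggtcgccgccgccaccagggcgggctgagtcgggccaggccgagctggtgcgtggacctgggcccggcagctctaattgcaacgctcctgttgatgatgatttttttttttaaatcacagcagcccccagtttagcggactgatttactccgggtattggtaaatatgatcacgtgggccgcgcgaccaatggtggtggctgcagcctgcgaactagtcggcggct

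In the Hoxd4 window a Cdx match at base -102 and an AGGTCA match on the reverse strand at base -98 overlap and form the run in capitals. The Hoxd8 and Hoxd9 windows held none of the 3 motifs. Over all 27457 promoters of this length, 7.75% held TGATNNAT, 13.3% held TTTATNA and 13.7% held AGGTCA. Of the 20 Hox members with an entry, 3, 2 and 3 did. The Hoxd8 window had 78.8% G and C bases with 38 CpG dinucleotides, Hoxd9 had 60.0% with 20, and Hoxd4 had 47.2% with 12, beside medians of 52.0% and 6 over all promoters. These letter matches are descriptions and say nothing of binding.

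Hoxd9 TPM was 3.54, 2.15 and 2.62 in Fb-Epn, 10.7, 7.85 and 7.46 in Fb-Par and 15.4, 17.3 and 16.6 in Fb-Skn. Hoxd4 TPM was 0.739, 0.980 and 0.876 in Fb-Epn, 3.05, 2.11 and 3.12 in Fb-Par and 6.06, 5.30 and 5.96 in Fb-Skn. For both genes the 3 types were fully separated, with Fb-Par in the middle. Hoxd9 was lower in Fb-Epn than in Fb-Par by a log2 fold change of -1.64 (SE 0.21, adjusted p = 1.1e-05) and than in Fb-Skn by -2.71 (SE 0.20, adjusted p = 3.1e-08), and Fb-Par differed from Fb-Skn by -1.06 (SE 0.18, adjusted p = 1.2e-04). Hoxd4 gave -1.65 (SE 0.25, adjusted p = 6.7e-05), -2.86 (SE 0.24, adjusted p = 1.2e-07) and -1.21 (SE 0.21, adjusted p = 1.7e-04) in the same 3 comparisons. Its listing overlaps Mir10b and a gene on the other strand, each with at most 1 count in a library.

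Hoxd8 TPM was 7.43, 10.2 and 10.9 in Fb-Epn, 18.9, 18.0 and 14.9 in Fb-Par and 21.2, 30.6 and 22.1 in Fb-Skn. The types did not overlap, but the step from Fb-Par to Fb-Skn was small beside the spread in Fb-Skn. The log2 fold change was -1.51 (SE 0.20, adjusted p = 1.7e-05) between Fb-Epn and Fb-Skn, -0.85 (SE 0.20, adjusted p = 0.0031) between Fb-Epn and Fb-Par and -0.66 (SE 0.19, adjusted p = 0.0088) between Fb-Par and Fb-Skn. The last missed the threshold without any of 8 of the 9 libraries in turn, all except Fb-Epn replicate 1, with an adjusted p of 0.0605 without Fb-Skn replicate 2. Between the nerve types the call was lost without Fb-Epn replicate 1 (adjusted p = 0.0180), Fb-Par replicate 1 (0.0152) or Fb-Par replicate 2 (0.0114).

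Hoxc5 was 0.801, 0.709 and 1.30 TPM in Fb-Epn, 2.53, 1.85 and 2.34 in Fb-Par and 4.30, 4.38 and 3.05 in Fb-Skn. It was thus ordered like the HoxD genes, and its listing overlaps Mir615. The log2 fold change was -2.20 (SE 0.28, adjusted p = 1.3e-05) between Fb-Epn and Fb-Skn, -1.26 (SE 0.30, adjusted p = 0.0028) between Fb-Epn and Fb-Par and -0.95 (SE 0.26, adjusted p = 0.0058) between Fb-Par and Fb-Skn. The last was lost without any of Fb-Par replicates 1, 2 and 3 or Fb-Skn replicates 1 and 2 (adjusted p 0.0117 to 0.0295). The call between the nerve types was lost without Fb-Epn replicate 1 or 2 or Fb-Par replicate 1 or 3 (adjusted p 0.0104 to 0.0173).

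**Figure D5:**
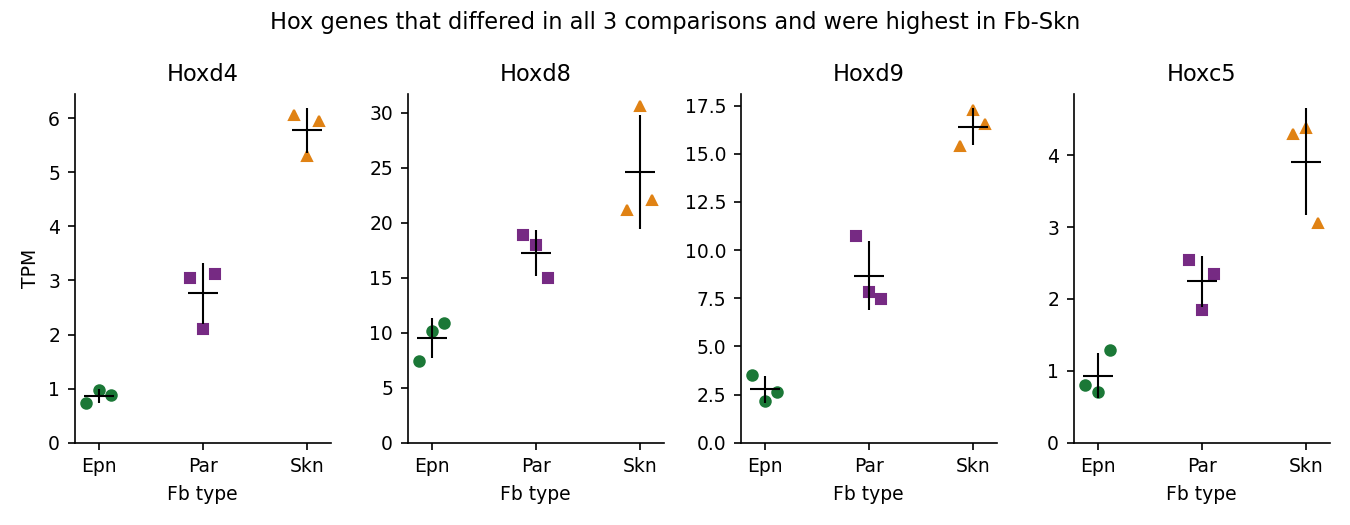
TPM (y axis) of Hoxd4, Hoxd8, Hoxd9 and Hoxc5 in the 3 types (x axis). Points are libraries, and crosses give the mean with the SD (n = 3). Fb-Par lies between Fb-Epn and Fb-Skn in all 4 genes.

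The other 6 HoxD genes were near the limit of detection. Hoxd1, Hoxd3, Hoxd10, Hoxd11, Hoxd12 and Hoxd13 together had 10 counts over the Fb-Epn libraries, 59 over Fb-Par and 70 over Fb-Skn, with 0 to 6, 15 to 22 and 17 to 30 counts per library. The posterior limb and genital genes Hoxd11 and Hoxd13 had no count in Fb-Epn. Hoxd13 had 4, 5 and 3 counts in Fb-Par and 3, 0 and 0 in Fb-Skn. On the floor of 3 counts Hoxd13 was 4.12-fold higher in Fb-Par than in Fb-Epn, and Hoxd11 was 3.43-fold higher there. Counting error in the few Fb-Par counts is not covered by these folds. None of these 6 genes was tested. Over HoxC and HoxD together, the 5 Hox genes lower in Fb-Epn than in Fb-Par became 2 without Fb-Epn replicate 1 and 3 without Fb-Epn replicate 2, Fb-Par replicate 1 or Fb-Par replicate 3.

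The HoxA cluster cannot be read in the same way. The annotation lists parts of it more than once, with 8 members on chromosome 4 (82125406 to 82300503, minus strand) and 8 on an unplaced sequence. Hoxa2, Hoxa4 and Hoxa11 are among the symbols with more than 1 listing, and Hoxa11 is listed more than once on chromosome 4 itself. All 14 genes listed on the unplaced sequence, Hox or not, had 0 counts in every library. Of 19 genes listed in the chromosome 4 stretch, 13 had a count, and the highest was 22. The highest count of a HoxA member was 10, for Hoxa6 in Fb-Epn replicate 1. That listing spans 90.0 kb and overlaps 8 other listed genes, Hoxa9 and Hoxa11 among them. The highest deposited FPKM of a HoxA member was 0.448. All HoxA members together had 17 counts over the Fb-Epn libraries, 14 over Fb-Par and 4 over Fb-Skn. Whether reads that match several positions or several genes were counted is not given in the sources used here, so these counts do not separate low RNA from reads lost to a repeated stretch. No statement on HoxA RNA is drawn from them.

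Of the 9 listed cofactors, the DNA-binding partners of Hox proteins, 8 were tested. In Fb-Epn against Fb-Skn, 2 were higher and 1 was lower, beside 23.0% and 20.9% of all tested genes. Against Fb-Skn, Fb-Par had 3 higher and 2 lower (23.2% and 22.4% of all), and between Fb-Epn and Fb-Par 3 were higher and 2 lower in Fb-Epn (20.2% and 18.6% of all). The median log2 fold change of the 8 was 0.14, -0.040 and 0.26 in these comparisons, beside -0.0028, -0.012 and -0.00018 over all tested genes. With so few genes in each of the lists given here, nothing particular to a list is read from its counts. Pknox2, a TALE homeodomain gene, had the largest difference. It passed the filter on low counts only through the nerve types, which fixed the direction of its calls against skin. Its TPM was 6.96, 7.95 and 7.74 in Fb-Epn, 6.12, 6.41 and 7.25 in Fb-Par and 0, 0.101 and 0 in Fb-Skn. On counts it was 495 in Fb-Epn and 415 in Fb-Par against 2 in Fb-Skn, a ratio of 213 (95% counting interval 58.8 to 1767) and 184 (50.7 to 1526).

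Meis1, which encodes a MEIS cofactor of Hox proteins, was 25.0, 22.8 and 24.0 TPM in Fb-Epn, 18.0, 16.7 and 17.6 in Fb-Par and 27.9, 31.2 and 31.6 in Fb-Skn. The types did not overlap, with Fb-Skn highest and Fb-Par lowest, and all 3 comparisons passed under every alternative. Between Fb-Par and Fb-Skn the log2 fold change of Meis1 was -0.94 (SE 0.066, adjusted p = 1.7e-08).

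Of the 17 chromatin regulators tested, 8 were higher and 1 was lower in Fb-Epn against Fb-Skn (23.0% and 20.9% of all tested genes), and 6 were higher and 2 lower in Fb-Par against Fb-Skn (23.2% and 22.4% of all). The lower calls in Fb-Par were Kmt2b, a Trithorax gene, which held in 0 of 18 alternatives (adjusted p up to 0.799), and Ezh2, which held in 5 of 18 (up to 0.116). Between the nerve types, 1 was higher and 1 lower in Fb-Epn (20.2% and 18.6% of all). The medians of their log2 fold changes were 0.23, 0.19 and -0.0042. Cbx7, which encodes a Polycomb reader of methylated histone, was the one with the largest difference from skin. Its TPM was 6.28, 6.98 and 6.02 in Fb-Epn, 7.23, 5.92 and 8.44 in Fb-Par and 1.60, 1.64 and 1.95 in Fb-Skn. Log2 fold changes were 1.75 (SE 0.18, adjusted p = 1.2e-06) and 1.90 (SE 0.18, adjusted p = 4.2e-07). Ezh2, the Polycomb methyltransferase, was 20.3, 21.5 and 19.8 TPM in Fb-Epn, 13.3, 13.0 and 12.3 in Fb-Par and 13.2, 15.0 and 15.3 in Fb-Skn, and Fb-Epn was above Fb-Par by 0.69 (SE 0.086, adjusted p = 1.1e-05).

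Of the 8 listed genes that act on Hox clusters through retinoic acid or along the body axis, 5 were tested. Each nerve type had 3 higher and 1 lower against Fb-Skn (23.0% and 20.9% of all tested genes in Fb-Epn, 23.2% and 22.4% in Fb-Par), and Fb-Epn had 1 higher and 3 lower against Fb-Par (20.2% and 18.6% of all), with medians of 0.19, 1.42 and -0.38. The lower call in Fb-Par against Fb-Skn was Rarg, a retinoic acid receptor gene, which held in 5 of 18 alternatives (adjusted p up to 0.563). In Fb-Epn Rarg was instead higher than in Fb-Skn, a call that held in 14 of 18 (up to 0.0248). The lower call in Fb-Epn was Rara, also a receptor gene, which held in 12 of 18 (up to 0.119). Rarb, another receptor gene that is itself induced by retinoic acid, was 8.11, 6.49 and 7.83 TPM in Fb-Epn, 8.08, 7.57 and 7.58 in Fb-Par and 0.237, 0.272 and 0.539 in Fb-Skn. Rarb is among the 3 higher in each nerve type, but passed the filter on low counts only through these types. The direction of its calls against skin was thus fixed by the filter. As a description, its log2 fold changes were 4.26 (SE 0.24, adjusted p = 1.6e-09) and 4.31 (SE 0.24, adjusted p = 1.2e-09). Cyp26b1, which encodes an enzyme that degrades retinoic acid, was 4.29, 4.14 and 3.89 TPM in Fb-Epn, 19.8, 19.1 and 20.0 in Fb-Par and 1.25, 1.29 and 1.37 in Fb-Skn. It differed in all 3 comparisons, by -2.24 between Fb-Epn and Fb-Par (SE 0.090, adjusted p = 3.4e-11). Gdf11, a growth factor gene known for setting the trunk to tail switch of Hox genes, was 16.3, 17.0 and 18.7 TPM in Fb-Epn, 40.8, 37.0 and 45.4 in Fb-Par and 13.9, 15.0 and 12.6 in Fb-Skn. Fb-Par thus stood highest in both, with a log2 fold change of Gdf11 between Fb-Epn and Fb-Par of -1.23 (SE 0.085, adjusted p = 1.6e-08). The Cdx genes, direct activators of Hox genes in the embryo, did not pass the filter on low counts and were not tested. Cdx1 reached the level called detected in Fb-Skn, with 11, 4 and 10 counts (TPM 2.47, 1.03 and 2.55), and had 2, 0 and 1 counts in Fb-Epn and 3, 1 and 5 in Fb-Par. Cdx2 had 2 counts in 1 Fb-Skn library and none elsewhere, and Cdx4 had none.

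Genes that flank the clusters were compared as well. Of 7 tested neighbours, Fb-Epn had 1 higher and 3 lower against Fb-Skn (23.0% and 20.9% of all tested genes), Fb-Par had 1 higher and 2 lower against Fb-Skn (23.2% and 22.4% of all), and Fb-Epn had 0 higher and 1 lower against Fb-Par (20.2% and 18.6% of all). None was a DE gene, and the medians were 0.14, -0.029 and 0.17. Mtx2, beside HoxD, was lower by -0.27 (adjusted p = 0.0033) in Fb-Epn and -0.44 (adjusted p = 5.6e-05) in Fb-Par than in Fb-Skn, and the former was lost in 7 of 18 alternatives. The Hox-like genes Evx1 and Evx2 at the ends of HoxA and HoxD had 0 counts in every library, as had Skap1 beside HoxB. Evx1 is listed on chromosome 4 and on the unplaced sequence, so its counts carry the same limit as those of HoxA.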

How the data were processed

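RNA sequencing covered 9 libraries. Per the submitters' processing notes, the authors used FastQC 0.11.7, Trimmomatic 0.38, HISAT2 2.1.0, featureCounts 1.6.3 and build rn6 on paired-end reads of 150 bp. The annotation release, the strand setting and the handling of reads with several positions are not given in the sources used here. The authors deposited raw counts per gene, TPM for the same genes, which were used as levels, and FPKM, which were used only for the upper limit of HoxA genes.

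Counts were tested with edgeR 4.0.16 in R 4.3.3 (TMM, default expression filter, 13273 genes, 9 libraries in 1 quasi-likelihood model), with Benjamini-Hochberg adjustment within each comparison. Standard errors are the log2 fold change divided by the root of F. TMM factors were 0.955 to 1.03, and the common coefficient of variation was 8.25%. Libraries of a type differed by more than sampling noise (chi-square per gene 3.21 to 5.22, where 1 is noise, over genes with at least 10 counts in a pair). In simulated data for Fb-Epn against Fb-Skn, 198 of 200 changed genes were recovered and 2 unchanged ones called among 13052. All changes had a log2 fold change of 2 in size, in genes with a mean above 10 counts, and every gene had the same dispersion. Smaller differences and genes with fewer counts were not covered. DESeq2 1.42.0 and limma 3.58.1 served as alternatives beside other scalings, filters, thresholds, a replicate block and leaving out each library, and Python 3.11.15 made the tables.

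Per-library TPM is given for Hox genes called or detected anywhere, and list genes are named only if called in a comparison, apart from flanking genes with no count and the untested Cdx genes. Some genes of the set and of the lists are counted in the totals but not reported here by themselves. Members, lists and motifs were chosen with earlier results of these data known.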

Additional observations from a re-analysis of the deposited data

How the results depend on the processing

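Directions of the Hox differences from skin were the same under all alternatives (normalization, test, filter, libraries, block). Of 906 values of single Hox genes under alternatives, 858 kept direction and side of the threshold, 40 lost the call, 4 gained it and 4 turned sign. The turned values were Hoxb4 between Fb-Epn and Fb-Par (leave-one-out -0.20 to 0.97) and Hoxb2 (leave-one-out -0.77 to 0.30), neither called. With at least 10 counts in every library, 1 Hox gene was higher and 8 were lower in Fb-Epn than in Fb-Skn, with 4 DE genes. In Fb-Par 1 was higher and 8 lower, with 1 DE gene, since fewer genes were tested. Of all 11313 genes under this filter, 2516 were higher, 2381 lower and 319 DE genes in Fb-Epn against Fb-Skn. For Fb-Par against Fb-Skn these numbers were 2582, 2523 and 373. At an adjusted p under 0.05, Fb-Epn had 2 Hox genes above Fb-Par and 7 below it. The share of all genes at this threshold is not given here, so these numbers are a description only. Leaving out 1 library gave 2 to 5 Hox genes with Fb-Epn under Fb-Par, beside 2113 to 2529 of all genes tested. The median log2 fold change of all genes against skin rose to 0.12 to 0.14 with limma on TPM. Same-numbered libraries did not deviate together (correlations -0.080 to 0.020). With 3 libraries per type, this cannot tell whether they share a rat or a batch. With the replicate block, the number of Hox genes lower in Fb-Epn than in Fb-Par stayed at 5, and between Fb-Par and Fb-Skn the calls of Hoxc5 (-0.96, adjusted p = 0.0115) and Hoxd8 (-0.64, adjusted p = 0.0121) were lost.

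Of 52 calls among the listed regulators and neighbours, 32 held in all alternatives and none turned sign. Cofactors called between Fb-Epn and Fb-Skn, 3 as tested, were 5 with library size only and with limma on either TPM scale. Of all genes, 3052 were higher and 2778 lower in Fb-Epn as tested. With library size only they were 3715 and 2113, and with limma 3845 and 1731 (TPM + 1) or 3816 and 1692 (TPM + 0.1). Retinoid and axis genes called between Fb-Par and Fb-Skn, 4 as tested, were 2 with at least 10 counts in every library. All genes gave 3077 higher and 2975 lower in Fb-Par as tested, and 2582 and 2523 under this filter. Neighbours called between Fb-Epn and Fb-Skn, 4 as tested, were 2 with DESeq2, which called 3017 of all genes higher and 2580 lower in Fb-Epn. Between Fb-Epn and Fb-Par, DESeq2 and limma on either TPM scale gave 1 chromatin regulator and 0 neighbours. Of all genes, DESeq2 called 2558 higher and 2449 lower in Fb-Epn. The numbers with limma were 2443 and 2329 (TPM + 1) or 2353 and 2230 (TPM + 0.1). Leaving out 1 library gave 1 to 2 chromatin regulators and 0 to 1 neighbours between the nerve types. All genes then gave 2327 to 2691 higher and 2113 to 2529 lower in Fb-Epn. Between Fb-Epn and Fb-Skn it gave 2 to 4 neighbours and 2 to 5 retinoid and axis genes. All genes there gave 2764 to 3083 higher and 2392 to 2746 lower in Fb-Epn.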
